A study of Cavia porcellus with 24 samples.

Results

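CpGs at which control whole blood was mosaic, with 30% to 65% of reads methylated, and control hippocampus was full, with at least 90% methylated, were examined in female guinea pigs. They were selected on the minus strand of the control pools alone, and all levels and differences below were read on the plus strand unless the minus strand is named. A CpG reads the same on both strands of the DNA. Each CpG therefore has a cytosine on the plus strand and another on the minus strand, and their reads are counted separately. The reads of both strands come from the same animals and pools, so the plus strand is not an independent sample of animals. Of 463059 CpGs with at least 20 reads on each strand in every pool, 1291 (0.279%) met the rule. These were 1.01% of the 128309 CpGs that were full in the control hippocampus.

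The samples were whole blood and hippocampus taken on postnatal day 14 from the same 12 female Hartley guinea pigs, which came from 12 litters. In the sGC group, 6 animals had mothers injected with 1 mg/kg betamethasone during gestation, in courses that began on days 40, 50 and 60 and ended on days 41, 51 and 61, and in the control group (Con) the mothers of 6 animals received saline. DNA methylation was measured by reduced representation bisulfite sequencing (RRBS), which sequences fragments cut at MspI sites after bisulfite has converted unmethylated cytosines. The deposited reads of each cytosine are sums over the 6 animals of a group, so that the data hold 4 pools, sGC blood, control blood, sGC hippocampus and control hippocampus, and the spread between animals is not known. The median depth of the selected CpGs was 117 reads in sGC blood, 90 in control blood, 111 in sGC hippocampus and 95 in control hippocampus, each close to that of all eligible CpGs (119, 93, 114 and 104).

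Most CpGs of a mammalian genome are methylated in most cells, and CpG-rich promoters are mostly free of methylation. A level between these states in a pool of DNA can come from a mixture of cell types, from alleles that differ or from animals that differ, and the pools do not tell these apart. Whole blood is a mixture of cells with DNA, above all granulocytes, lymphocytes and monocytes, and loss of methylation at enhancers is known to accompany the differentiation of blood lineages. The hippocampus holds neurons, glia and vessels. Neither the shares of cell types nor markers of them were measured here.

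The intermediate level in blood was also found on the strand that had not been used for selection. In control blood the median plus-strand methylation of the 1291 CpGs was 54.3% (quartiles 42.6% and 63.8%), and in control hippocampus it was 91.5% (87.5% and 94.9%). In the sGC pools, from animals that the rule did not use, the medians were 52.3% (39.7% and 62.9%) in blood and 88.7% (84.5% and 92.3%) in hippocampus. Over all eligible CpGs the medians were 83.3% in control blood and 70.7% in control hippocampus. The opposite order of the tissues at the selected CpGs was set by the rule. On the plus strand 924 of the 1291 CpGs lay between 30% and 65% in control blood, 282 were above and 85 below. In control hippocampus 792 were at 90% or more, 437 between 80% and 90%, and 62 below 80%. Both limits were met on the plus strand at 552 CpGs (42.8%).

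**Figure D1:**
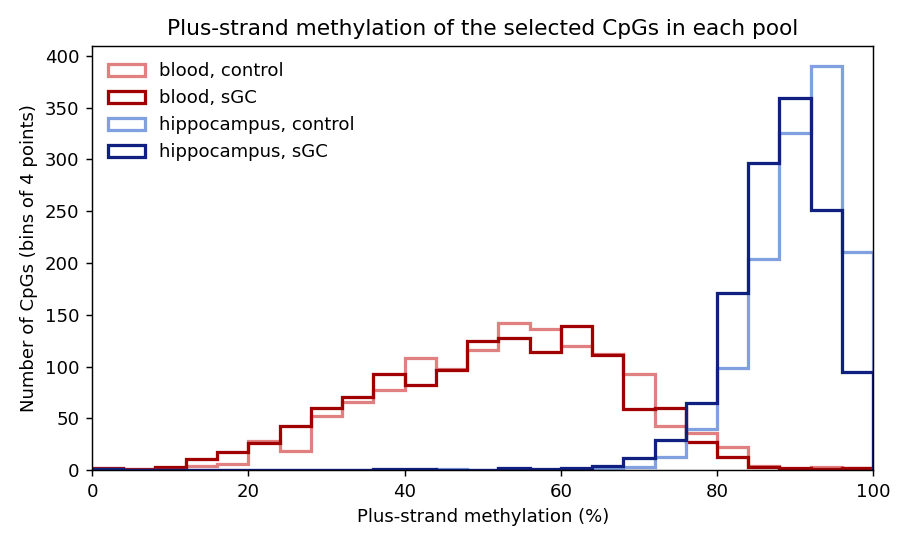
Number of selected CpGs (y axis) by plus-strand methylation in percent (x axis, bins of 4 percentage points) in the 4 pools, drawn as outlines. The blood pools spread widely around medians of 54.3% (control) and 52.3% (sGC), and the hippocampus pools are narrow around 91.5% (control) and 88.7% (sGC), with the sGC outline lower.

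Blood was lower than hippocampus on the plus strand in both the control and the sGC pools at 1279 of the 1291 CpGs, and by at least 20 percentage points in both at 1054. In the control pools, which give no test because they chose the CpGs, the median difference of blood less hippocampus was -37.0 percentage points. In the sGC pools it was -36.3 (quartiles -46.8 and -26.3). The reads of the sGC pools were compared by Fisher's exact test (two-sided), with Benjamini-Hochberg adjustment over all 2564116 cytosines listed in both tissues, and a CpG was called where the adjusted p was below 0.05 and the levels were 5 or more percentage points apart. The test called 1189 CpGs (92.1%) lower in blood and 0 higher. The same call was made for blood lower at 6.37% of all eligible CpGs and for blood higher at 19.3%. Among CpGs that were full in the control hippocampus but not selected, blood was called lower at 2.89%. The test compares pools of reads from 6 animals, not animals. When its chi-square form was divided by the genome-wide inflation factor of 3.39, 767 of the selected CpGs were called. The share of all eligible CpGs called in that form is not given here, so 767 has no background beside it.

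The limits cut through a continuous range. The selected CpGs nearest to the limits had 30% and 65% in control blood on the minus strand, and the nearest CpGs left out had 29.8% and 65.05%. In control hippocampus the nearest values were 90% inside and 89.9% outside. A further 15655 CpGs that were full in hippocampus had more than 65% and less than 90% in control blood, and 347 had less than 30%.

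In the sGC pools the median absolute difference between the strands of a CpG was 4.88 percentage points in blood and 3.42 in hippocampus, and they were 20 or more apart at 28 CpGs (2.17%) in blood and at 8 (0.620%) in hippocampus. Over all eligible CpGs the strands were that far apart at 0.777% in blood and at 1.34% in hippocampus. Counting error is largest at intermediate levels, and the rule sets the level of the selected CpGs in each tissue. No comparison at matched levels was made, so these shares are not read as a trait of the selected CpGs, and their difference was not tested. At the most discordant, position 4156663 of cavPor3 scaffold DS562909.1, which was chosen after its values were seen, the plus strand was methylated in 5 of 262 reads in sGC blood, 1 of 180 in control blood, 4 of 250 in sGC hippocampus and 2 of 217 in control hippocampus. Its minus strand was at 69.6%, 57.1%, 89.5% and 96.9% in the same order. The plus strand was thus nearly free of methylation in all 4 pools and carried no tissue difference.

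The CpGs lay on 161 scaffolds in 951 clusters, where neighbors up to 200 bp apart were joined. A single CpG made up 732 of the clusters, and 559 CpGs (43.3%) lay in 219 clusters of 2 to 8. Adjacent selected CpGs within a cluster were a median of 16 bp apart and differed by a median of 6.85 percentage points in sGC blood. Consecutive selected CpGs in different clusters differed by 15.5. CpGs this close share reads, so that their levels are not independent. The selected CpGs had a median of 2 other listed CpGs within 100 bp, against 3 for all eligible CpGs, 3 for CpGs full in both tissues and 3 for CpGs mosaic in hippocampus and full in blood by the same rule with the tissues exchanged. At least 10 others lay within 100 bp of 2.48% of the selected CpGs and of 9.01% of all eligible CpGs. No gene annotation or genome sequence of the cavPor3 build was used here, so that promoters, islands and motifs were not analysed.

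The low level in blood extended to neighboring CpGs that had not been selected and faded with distance. At 1 to 50 bp from a selected CpG, the 1342 other eligible CpGs had a median of 51.9% in control blood and 86.9% in control hippocampus, and blood was the lower tissue at 97.2% of them. At 51 to 100 bp the medians were 58.3% and 86.2%, and at 101 to 200 bp 67.3% and 86.3%. From 201 to 500 bp they were 81.7% and 85.2%, and from 1001 to 2000 bp blood was above hippocampus, with 87.5% against 80%. The hippocampus hardly varied over the nearest 500 bp, while the blood rose with distance. CpGs mosaic in hippocampus and full in blood, of which there were 10631, had the reverse arrangement over a longer distance, since the other CpGs at 201 to 500 bp still had 72.2% in control hippocampus against 90% in control blood. The difference in extent between these classes was not tested.

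**Figure D2:**
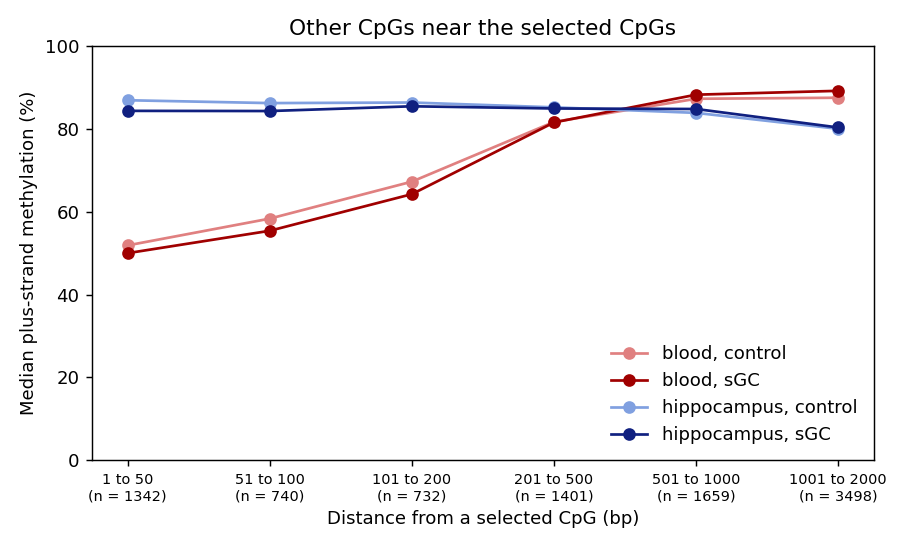
Median plus-strand methylation in percent (y axis) of eligible CpGs that were not selected themselves, by distance in bp from a selected CpG (x axis, n of CpGs under each bin), in the 4 pools. Both blood lines rise with distance from about the level of the selected CpGs, are still below the hippocampus at 201 to 500 bp (81.5% in sGC and 81.7% in control blood) and are above it from 501 bp, and both hippocampus lines stay between 80% and 87%.

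The cluster with the most selected CpGs lay on scaffold DS562957.1 from 576031 to 576165, where all 8 eligible CpGs were selected and the plus strand had 191 to 415 reads per CpG and pool. Its levels were 41.6% to 66.2% in control blood, 42.7% to 61.9% in sGC blood, 86.8% to 96.2% in control hippocampus and 82.1% to 91.1% in sGC hippocampus. Blood and hippocampus did not overlap, and all 8 CpGs were lower with sGC exposure in hippocampus, with a difference of -7.01 percentage points over the summed readings, against -1.66 in blood. Within it, the CpG at 576031 had 66.2% (223 of 337 reads, Wilson 95% interval 60.96 to 71.02) in control blood and the CpG at 576135 had 43.3% (100 of 231 reads, 37.1 to 49.7). On the plus strand the level in blood thus varied along the cluster beyond counting error. On the minus strand these CpGs were closer in control blood, at 61.2% and 52.9%.

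The next cluster, of 7 selected CpGs among 11 on scaffold DS562976.1 from 6497 to 6798, was the most methylated in blood, with 69.2% of readings in controls and 72.0% with sGC exposure, against 93.8% and 90.4% in hippocampus. On scaffold DS562879.1, 6 CpGs from 2578269 to 2578497 had 53.8% and 56.9% in blood and 95.6% and 90.3% in hippocampus. On scaffold DS562870.1, 6 CpGs from 34326388 to 34326608 had 45.6% and 38.9% in blood and 95.4% and 87.8% in hippocampus. The summed readings of sGC blood were thus above those of control blood in the first pair and below in the last, while the hippocampus was lower with sGC exposure in all of them.

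The remaining 4 of the largest clusters held 5 selected CpGs each, and they had the lowest levels in control blood. On scaffold DS562995.1 from 361369 to 361440 the readings were methylated at 34.4% in control and 25.6% in sGC blood, and at 92.8% and 84.2% in hippocampus. On scaffold DS562857.1 from 65968368 to 65968416, where each CpG had 94 to 122 reads per pool, blood was at 36.1% and 23.9% and hippocampus at 93.3% and 87.4%, and sGC exposure went with lower levels at all 5 CpGs in both tissues. On scaffold DS563237.1 from 136540 to 136711 blood was at 35.2% and 34.9% and hippocampus at 93.0% and 86.5%. The last, on scaffold DS562995.1 from 1025452 to 1025543, had the smallest difference in hippocampus, with 95.3% in controls and 95.02% with sGC exposure and 3 of 5 CpGs lower, and its blood was at 39.8% and 44.5%. Of the 47 CpGs in these 8 clusters, the Fisher test called 1 in hippocampus and 0 in blood for sGC exposure. Among all eligible CpGs it called 0.0473% lower and 0.0989% higher in hippocampus, and 0.178% and 0.285% in blood. The 47 are too few, and share too many reads, to be set against these shares.

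**Figure D3:**
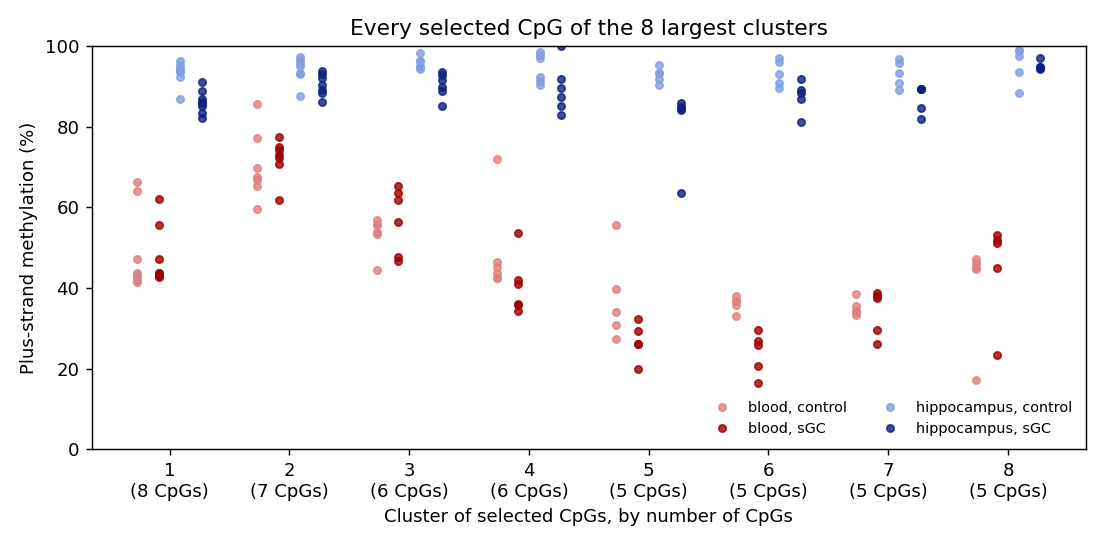
Plus-strand methylation in percent (y axis) of every selected CpG in the 8 clusters with the most of them (x axis, in the order of the text), with 1 point per CpG and pool. Blood lies below hippocampus in each cluster, and most sGC hippocampus points sit lower than the control ones in clusters 1 to 7.

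The methylation difference of sGC less control was below 0 at most of the selected CpGs in both tissues. In hippocampus the median difference was -2.78 percentage points (quartiles -6.23 and 0.922), and 895 of the 1291 CpGs (69.3%) were lower with sGC exposure, against a median of 0.654 and 42.6% lower over all eligible CpGs. In blood the median was -1.96 (quartiles -7.42 and 3.93) and 767 CpGs (59.4%) were lower, against 0.4004 and 45.8%. The CpGs are not replicates of the exposure, so no test was made of these medians. At 560 CpGs (43.4%) the level was lower with sGC exposure in both tissues, at 188 higher in both, at 334 lower in hippocampus and higher in blood, and at 207 the reverse, while over all eligible CpGs 21.0% were lower in both and 32.3% higher in both. The tissues come from the same animals.

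The control pools enter both the rule and this difference, on different strands, and animals of a pool are read on both strands. With the same limits applied to the sGC pools instead, an alternative chosen after the data were seen, the 914 CpGs selected had median differences of -1.62 in hippocampus and -1.61 in blood, so the sign was the same whichever arm selected. Among the 111016 CpGs that were full in both tissues by the same limit, the medians were 0.293 in hippocampus and 0.224 in blood. For the class with the tissues exchanged they were 4.67 in hippocampus and 2.85 in blood, that is, of the opposite sign to those of the selected CpGs. By these medians, in the selected and the exchanged class, the sGC pool of hippocampus was shifted towards the level of blood. The sGC pool of blood was shifted away from the level of hippocampus. Both classes were selected on the control pools, and selection on the sGC pools was not repeated for the exchanged class. How far the share of blood in the hippocampus samples, of cell types in either tissue or of single animals enters these differences was not tested.

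**Figure D4:**
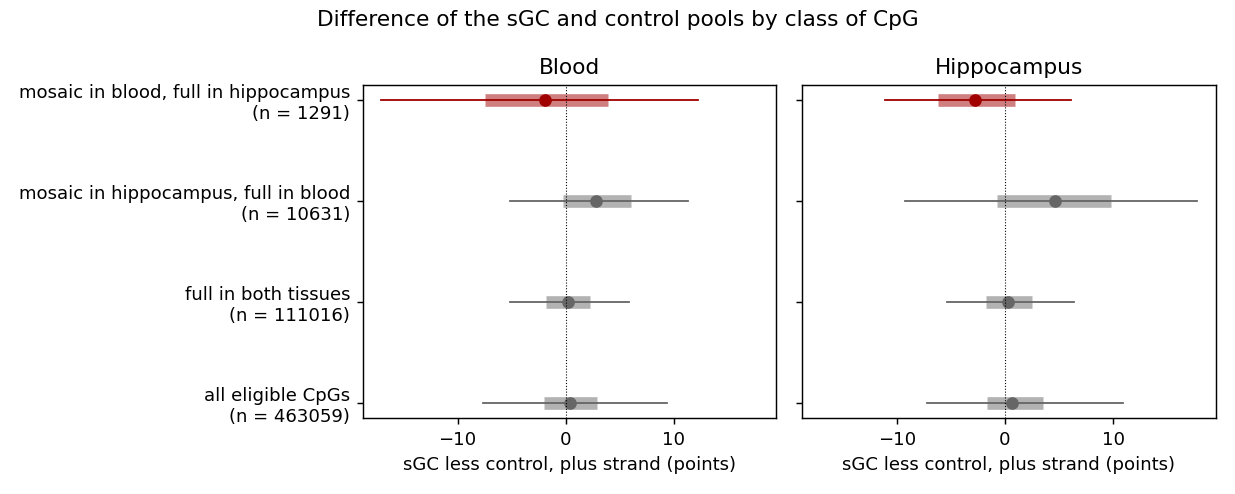
Plus-strand methylation of the sGC pool less that of the control pool in percentage points (x axis) for 4 classes of CpG (y axis) in blood and hippocampus. Points are medians, thick bars quartiles and thin lines the 5th to 95th percentiles over CpGs, and only the CpGs mosaic in blood and full in hippocampus have both medians below 0 (-1.96 and -2.78).

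The selected CpGs were also divided by the tissue gap in the control pools, and the median difference was larger in the bins with a wider gap. CpGs whose control hippocampus exceeded control blood by 25 to 35 percentage points on the minus strand (421 CpGs) had a median sGC less control difference of -1.95 in hippocampus and -0.773 in blood on the plus strand. For a gap of 35 to 45 (418 CpGs) the medians were -2.47 and -1.87, for 45 to 55 (269 CpGs) -3.92 and -2.59, and for 55 to 70 (183 CpGs) -4.26 and -2.93. The control pools set the gap and also enter the difference, and the CpGs of a pool share its animals. The gap was not set in the sGC pools instead. The bins therefore cannot separate a trend with exposure from one made by the control values, and no conclusion is drawn from them. From the smallest gap to the largest, median plus-strand methylation fell from 63.6% to 33.9% in control blood. In control hippocampus it was 91.25% and 91.8%, so a larger gap was also a lower level in blood. On the 20 scaffolds with the most selected CpGs (579 in all) the median was below 0 on 19 in hippocampus, between -5.36 and 0.344, and on 15 in blood, between -4.87 and 3.62. Unselected CpGs within 50 bp moved likewise, with medians of -1.94 in hippocampus and -2.29 in blood, and those at 1001 to 2000 bp had 0.604 and 0.281.

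Few single CpGs were called for sGC exposure. In hippocampus the Fisher test, adjusted over all 2869370 cytosines of that table, called 6 of the 1291 CpGs (0.465%) lower and 0 higher, against 0.0473% lower and 0.0989% higher among all eligible CpGs. At an unadjusted p below 0.05, 167 (12.9%) were lower and 13 (1.01%) higher, against 1.69% and 4.63%. In blood, adjusted over 2927801 cytosines, 3 (0.232%) were called lower and 0 higher, which is near the 0.178% called lower and the 0.285% called higher among all eligible CpGs. Unadjusted, 110 (8.52%) were lower and 34 (2.63%) higher in blood, against 2.54% and 4.74%. The number of calls in hippocampus depended on the selection. With selection on the plus strand and reading on the minus strand, 1 of 1260 CpGs (0.0794%) was called lower there, and with selection on the sGC pools 1 of 914 (0.109%). After division of the chi-square by its inflation factor 1 call was left in hippocampus and 0 in blood.

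The largest change was at position 25206442 of scaffold DS562874.1, where hippocampus fell from 84.7% in controls (111 of 131 reads, 77.6 to 89.9) to 41.3% with sGC exposure (59 of 143 reads, 33.5 to 49.5). The adjusted Fisher's exact p was 5.51e-10, and the minus strand fell by 44.5 percentage points. In blood of the same animals it was at 52.4% in controls (44 of 84 reads) and 46.0% with sGC exposure (63 of 137), a difference of -6.40. The other 4 eligible CpGs within 100 bp, at 2 to 47 bp, had nearly the same number of reads and differed by between -1.19 and 2.97 in hippocampus, with 81.5% to 86.3% in controls. The change was therefore at 1 CpG, on both of its strands, and not along the fragment.

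The other calls in hippocampus were smaller, and at 4 of the 5 all neighbors within 100 bp were lower as well. At 2568629 of scaffold DS562879.1 hippocampus was at 92.2% in controls (106 of 115 reads) and 70.8% with sGC exposure (85 of 120, adjusted Fisher's exact p = 0.024), with blood at 24.4% and 23.7%, and all 3 other CpGs within 100 bp were lower by 5.79 to 16.2. At 118557 of scaffold DS562951.1 it was at 98.4% and 81.8% (122 of 124 and 112 of 137 reads, adjusted Fisher's exact p = 0.0083), and all 7 neighbors were lower, with a median difference of -9.76. Its minus strand did not share the change, with a difference of 1.18. At 5732159 of the same scaffold it was at 98.3% and 83.5% (adjusted Fisher's exact p = 0.044), and all 3 neighbors were lower, with a median of -10.6. At 5653786 of scaffold DS562934.1 it was at 95.1% and 82.1% (196 of 206 and 207 of 252 reads, adjusted Fisher's exact p = 0.020), with no other eligible CpG within 100 bp. The sixth was at 576135 of scaffold DS562957.1, in the largest cluster, with 96.2% and 83.4% (adjusted Fisher's exact p = 0.0030), and all 11 neighbors were lower, by a smaller median of -4.91 (-8.65 to -0.0818) against -12.8 at the CpG itself. The minus strand differed by -23.4 at 2568629, by -5.49 at 5732159, by -9.45 at 5653786 and by -7.28 at 576135. No neighbor of the 6 called CpGs was called itself.

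The 3 calls in blood lay on 2 scaffolds. At 30713573 of scaffold DS562878.1 blood was at 78.1% in controls (75 of 96 reads, 68.9 to 85.2) and 49.3% with sGC exposure (72 of 146, 41.3 to 57.3, adjusted Fisher's exact p = 0.0052), and the minus strand differed by -6.28. At 32109812 of scaffold DS562870.1 it was at 70.7% and 46.2% (94 of 133 and 79 of 171 reads, adjusted Fisher's exact p = 0.013), whereas its minus strand was at 50.9% and 51.4%. At 31276247 of the same scaffold it was at 43.0% and 23.1% (74 of 172 and 46 of 199 reads, adjusted Fisher's exact p = 0.023), and here the minus strand fell too, by 16.2 percentage points. The change was therefore of like size on both strands at 1 of the 3. Hippocampus at these CpGs differed by -3.86, -6.79 and -1.65.

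No selected CpG was called for a difference of the sGC change between the tissues. A Wald test of the difference of the log odds ratios, adjusted over all eligible CpGs, called 0 of them and 0.0158% of all eligible CpGs. At an unadjusted p below 0.05 it had 125 (9.68%), against 4.69%. Where at least 50 reads were required on each strand in every pool, 1 was called, the CpG at 25206442 of scaffold DS562874.1.

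The deepest of the selected CpGs show the precision that the data can give. At 88075786 of scaffold DS562855.1 blood was at 57.3% in controls (320 of 558 reads, 53.2 to 61.4) and 59.6% with sGC exposure (273 of 458, 55.1 to 64.0), and hippocampus at 89.98% (584 of 649, 87.4 to 92.1) and 88.1% (510 of 579, 85.2 to 90.5). At 267458 of scaffold DS563033.1 blood was at 64.5% (345 of 535 reads) and 57.6% (364 of 632), and hippocampus at 88.3% and 87.8%. At 5511761 of scaffold DS562879.1 blood was at 50.6% (131 of 259 reads) and 46.2% (145 of 314), and hippocampus at 87.9% and 87.1%. The intervals of the tissues lay far apart and those of the exposure groups overlapped. At 2 further CpGs of the largest cluster, at 576031 and 576048, blood was at 66.2% and 64.0% in controls and at 61.9% and 55.7% with sGC exposure, and hippocampus at 95.2% and 93.9% in controls and at 91.1% and 88.9% with sGC exposure. None of these 5 was called for sGC exposure in either tissue.

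Gene names came from the study's tables of cytosines, of which 2 were used in shortened form. These tables list the cytosines that the study itself reported as differentially methylated with sGC exposure. A cytosine of those tables lay within 200 bp of 8 selected CpGs, and the nearest one carried a gene name for 3. For 5 selected CpGs a cytosine of the CpG itself was listed. For *DAPK2*, a death-associated protein kinase regulated by calmodulin, the CpG at 82205835 of scaffold DS562855.1 had 36.4% in control blood (20 of 55 reads), 30.4% in sGC blood (28 of 92), 90.7% in control hippocampus (39 of 43) and 81.25% in sGC hippocampus (39 of 48). For *EXTL3*, a glycosyltransferase of heparan sulfate synthesis, the CpG at 66931819 of scaffold DS562856.1 had 28.7% (37 of 129), 17.6% (22 of 125), 91.7% (88 of 96) and 88.5% (100 of 113) in the same order. For *ACACB*, an acetyl-CoA carboxylase that makes malonyl-CoA at mitochondria, the CpG at 6309365 of scaffold DS562859.1 had 62.9% (56 of 89), 59.8% (70 of 117), 83.2% (99 of 119) and 89.8% (114 of 127). Blood was below hippocampus at all 3. The Fisher test on the pooled reads called none of them for sGC exposure in either tissue (adjusted Fisher's exact p of at least 0.83). The study's lists rest on its own test.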

How the data were processed

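RRBS was performed in 24 samples, 6 in each of 4 groups. Per the labels and the study's methods, the authors trimmed single-end reads of 75 bp with Trim Galore and a NuGEN script, aligned them with Bismark 0.16.0 and sorted the alignments (SAMtools 1.7), and their own comparison was made in MethPipe with batch as a covariate. The annotation was of build cavPor3, and the batches, which the pools hide, were not analysed here. The deposited tables give the counts of methylated and total reads per cytosine, summed by the authors over each group's 6 animals and not normalized, for cytosines with at least 10 reads per group. Their FDR column holds the authors' own comparison and was not used. The readings summed over cytosines were 269116901 to 323883199 per pool.

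Both tables were joined on scaffold, position and strand (2564116 cytosines), and 506034 CpGs were listed on both strands. Fisher's exact test was run and adjusted (Benjamini-Hochberg) over whole tables and the Wald test, with 0.5 added to each count, over the plus strand of all eligible CpGs. Both were tried on simulated binomial reads. These held no spread between animals, so the simulation does not show how the tests behave with such spread. The members and lists were chosen with earlier results of these data known. Described in full were the 8 clusters with the most members, the 5 deepest members, up to 5 called members per tissue and direction, up to 10 genes named by the study's tables, and the values next to the limits. The sixth call in hippocampus and the most discordant CpG were added after their values were seen. Wilson intervals are 95% and, like the Fisher test, cover counting error only. The study's methods describe no removal of PCR duplicates, so copies of a molecule may be counted as separate reads. Alternatives changed the minimum reads, the strand, the arm, the limits, the adjustment, the minimum difference and the inflation. Scripts ran under Python 3.11.15 (scipy 1.17.1 and numba 0.67.0 for the tests, pandas 2.3.3 and numpy 2.4.6 for tables, matplotlib 3.10.9 for plots).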

Additional observations from a re-analysis of the deposited data

How the results depend on the processing

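The sums over animals allow no estimate of the spread between animals, and no animal could be left out. No paired analysis was possible because the deposited columns pool the 6 animals of a group. Blood stayed below hippocampus and both median sGC differences stayed below 0 under every alternative run. With at least 50 reads, 805 CpGs were selected, the median in control blood was 52.8%, 786 were called lower in sGC blood than in sGC hippocampus, the median sGC difference in hippocampus was -3.29 and 1 CpG was called for a difference between the tissues. Selected on the plus strand and read on the minus strand, the median in control blood was 55.8%, the median difference in hippocampus -2.16, and the calls for sGC exposure 5 in blood (1 of them higher) and 1 in hippocampus. With 35% to 60% in blood and at least 95% in hippocampus, 217 CpGs remained, with medians of 50.96% and 93.5%, 205 called between the tissues and 3 called in hippocampus. Selected on the sGC pools, the control medians were 59.3% and 92.3%, the median difference in hippocampus was -1.62, 1 CpG was called lower there, and in blood 1 was called lower and 1 higher. Adjustment over the plus strand of eligible CpGs gave 5 calls in blood (4 lower, 0.31%, and 1 higher, 0.0775%). Shares called among all eligible CpGs are given above for the main setting only. The counts of calls under the alternatives have no such share beside them and are not read as results about the selected CpGs. The inflation factors were 1.73 in blood, 1.76 in hippocampus and 3.39 between the tissues. Division by them left 0 calls in blood, 1 in hippocampus and 767 between the tissues. In the main setting, 110 CpGs (8.52%) were lower and 34 (2.63%) higher in blood at an unadjusted Fisher p below 0.05. Among all eligible CpGs the shares were 2.54% and 4.74%.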
